A study of Mus musculus with 2 samples.

Results

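The 10 genes described here, Fos, Fosb, Junb, Egr1, Egr2, Npas4, Nr4a1, Ier2, Arc and Dusp1, are immediate early genes that neuronal activity is known to induce. The list was drawn up by gene name, with earlier results of these data known. Every array probe whose gene symbol, current or older, was on the list was taken. This gave 12 probes of the 41174 on the array and 10 of its 21486 named genes. Junb and Ier2 had 2 probes each. All 12 probes were well above background on all 4 arrays, so each ratio below was measured and none is a bound.

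The arrays measured pooled hypothalamus RNA of mice given bezafibrate, a fibrate drug that activates PPAR nuclear receptors, and of control mice, killed at ZT10 or at ZT22 (zeitgeber time, in hours after lights on). The 4 groups were control at ZT10, bezafibrate at ZT10, control at ZT22 and bezafibrate at ZT22, each 1 pool of equal RNA amounts from 4 mice on 1 one-colour array. The treatment scheme in the labels began at 8 weeks of age with 2 weeks of normal feed, went on with 2 weeks of bezafibrate at 0.5% of the feed, and ended with a return to the normal diet lasting 5 weeks. The labels do not state at which stage the brains were taken, what the controls ate during the drug weeks, or the strain and sex. The tissue was a square block around the hypothalamus, kept for 2 hours in a stabilizing reagent. Of 25 hypothalamus markers, 24 were above background on all 4 arrays.

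The arrays were alike in brightness. Their 75th percentiles of signal lay between 893 and 1050 intensity units, and 68.7% to 74.6% of features were well above background. All 4 arrays were on 1 slide, with the controls at positions 1 and 2 and the bezafibrate pools at positions 3 and 4, so that diet and position cannot be told apart. Levels are given as scaled signals, in units in which the 75th percentile of each array is 1000. They are compared between arrays for the same probe and never between probes. Since each group had 1 array, no spread between mice or pools was available, and no test exists for a pair of arrays. The ± beside a log2 ratio, called the scanner error below, is the error that the extraction software gave for the spots' signals. It says nothing of biological variation. Its median over all probes was 0.20. For Junb, Egr1, Arc, Nr4a1 and Dusp1 it was the same 0.204 in every comparison, so it is not a spread measured between spots. It was averaged over the repeated spots of a probe and not reduced for their number.

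Immediate early genes are transcribed within minutes of a stimulus without new protein synthesis. Calcium entry and growth factor signals reach them through kinases that activate CREB, which binds cAMP response elements, and SRF with its cofactors, which binds CArG boxes. Most encode transcription factors that act on later genes, while others encode synaptic proteins or enzymes that switch the same signalling off. In the hypothalamus, Fos protein is a widely used mark of recently active neurons, including cells that respond to light, feeding state and stress.

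The 250 bases before the start site show the response elements that several of these genes share, and 3 of these promoters are printed for that reason. RefSeq promoters of assembly GRCm38.p6 were found for 7 of the 10 genes, Dusp1, Egr2, Fos, Fosb, Junb, Npas4 and Nr4a1. Capitals mark TGACG on either strand, which is the CREB core site and is read as CGTCA on the other strand, together with the full palindrome TGACGTCA, which contains TGACG on both strands, and TATAAA. The Fos promoter spans chr12:85473640-85473889 on the plus strand, that of Npas4 chr19:4989972-4990221 on the minus strand and that of Dusp1 chr17:26508473-26508722 on the minus strand.
Fos: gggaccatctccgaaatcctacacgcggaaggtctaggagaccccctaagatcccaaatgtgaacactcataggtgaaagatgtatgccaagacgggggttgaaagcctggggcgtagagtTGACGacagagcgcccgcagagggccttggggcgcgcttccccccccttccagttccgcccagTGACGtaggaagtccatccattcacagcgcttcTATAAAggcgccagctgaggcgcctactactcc
Npas4: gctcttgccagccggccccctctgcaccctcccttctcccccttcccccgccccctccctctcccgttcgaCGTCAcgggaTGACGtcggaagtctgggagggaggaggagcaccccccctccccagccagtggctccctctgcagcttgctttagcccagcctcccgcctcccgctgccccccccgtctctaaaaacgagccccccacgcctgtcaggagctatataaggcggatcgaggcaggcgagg
Dusp1: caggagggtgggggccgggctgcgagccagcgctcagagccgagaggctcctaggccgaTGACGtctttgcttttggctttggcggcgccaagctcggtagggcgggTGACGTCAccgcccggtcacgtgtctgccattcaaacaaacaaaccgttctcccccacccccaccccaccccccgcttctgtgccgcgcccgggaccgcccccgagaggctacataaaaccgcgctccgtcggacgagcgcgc
In Fos, TGACG lay at -129 to -125 and at -66 to -62 from the start site, with TATAAA at -33 to -28. Npas4 held TGACG on both strands within a few bases of each other, and Dusp1 held the full palindrome at -143 to -136. Each of the 7 genes had TGACG in its window, which 17.8% of all 32851 promoters had. The full palindrome, present in 1.55% of promoters, was found in Dusp1 alone of the 7, and TATAAA, present in 12.4%, in Fos alone. TGANTCA, the AP-1 site, was in none of the 7 and in 6.75% of promoters. GCGGGGGCG, the EGR site, was in Fosb and Nr4a1 and in 2.57% of promoters. The CArG box, present in 1.47%, was found in Egr2 alone of the 7, and 3 of the 5 Egr2 windows held it beside a TGACG on the other strand. The 22 bases that join the CArG box to that site, both in capitals, lie at chr10:67537797-67537818 on the plus strand.
Egr2 site: CCATATATGGgcagcgaCGTCA
These matches describe letters in a window, and a missing match says only that the letters are not in it.

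No member stood 1.5-fold or more apart between diets or between times. With bezafibrate at ZT10 the count was 0 of 12 probes, where 4.43% of 30577 probes on the array were that far apart. For bezafibrate at ZT22 it was 0 of 12 against 6.36% of 29480 probes. Between ZT22 and ZT10 the counts were 0 of 12 against 8.58% of 30766 probes in control mice and 0 of 12 against 6.69% of 29160 probes in bezafibrate mice. At shares of this size, a count of 0 among 12 is close to the background. The widest member ratio was that of Egr2 between times in bezafibrate mice, 1.497-fold and so just under the threshold, with a log2 ratio of 0.58 ± 0.21. Of 48 member ratios, 3 exceeded 2 scanner errors. Those 3 were Fosb and 1 probe of Ier2 between times in control mice, and Egr2 between times in bezafibrate mice. Under normexp background correction the ratios of Fosb and Ier2 were 0.27 and 0.25, and that of Egr2 was 0.48. This count was added after the values were seen. Of all measured probes, 4.09% passed 2 scanner errors with bezafibrate at ZT10, 5.3% with bezafibrate at ZT22, 8.8% between times in control mice and 7.28% between times in bezafibrate mice.

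**Figure D1:**
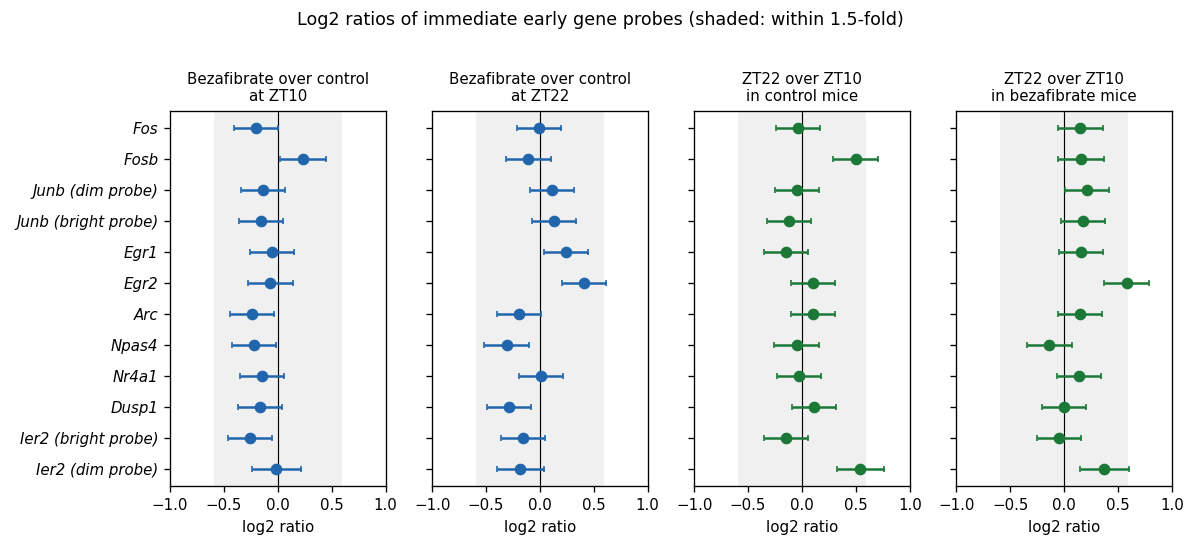
Log2 ratios of the 12 probes in the 4 comparisons, with points at the ratio and bars at the scanner error of 1 array pair. The shaded band marks ratios within 1.5-fold, and all 48 points lie inside it.

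Most members were slightly lower with bezafibrate at ZT10, and their signs were mixed at ZT22. At ZT10, 11 of 12 probes were lower with bezafibrate and Fosb was higher, and the median log2 ratio was -0.15, where the median over all measured probes was 0.01 and 47.3% of them were negative. A dim Ier2 probe among the 11, at -0.01, turned to 0.04 under quantile normalization. At ZT22, 7 probes were lower and 5 higher, with a median of -0.06 against 0.01 over all probes. From ZT10 to ZT22 the control pools had 7 probes lower and 5 higher, with a median of -0.03 against 0.01. The bezafibrate pools had 9 probes higher and 3 lower, with a median of 0.15 against 0.01. These comparisons share arrays in pairs, so the sides they lean to are not independent of each other. The bezafibrate ZT10 array, which enters both the diet ratio at ZT10 and the time ratio in bezafibrate mice, held the lowest value of 7 of the 12 probes and the highest of none. Over all probes above background on 4 arrays, it held the lowest value of 24.9% and the highest of 23.6%. In bulk tissue, fewer active neurons and less RNA per neuron cannot be told apart.

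**Figure D2:**
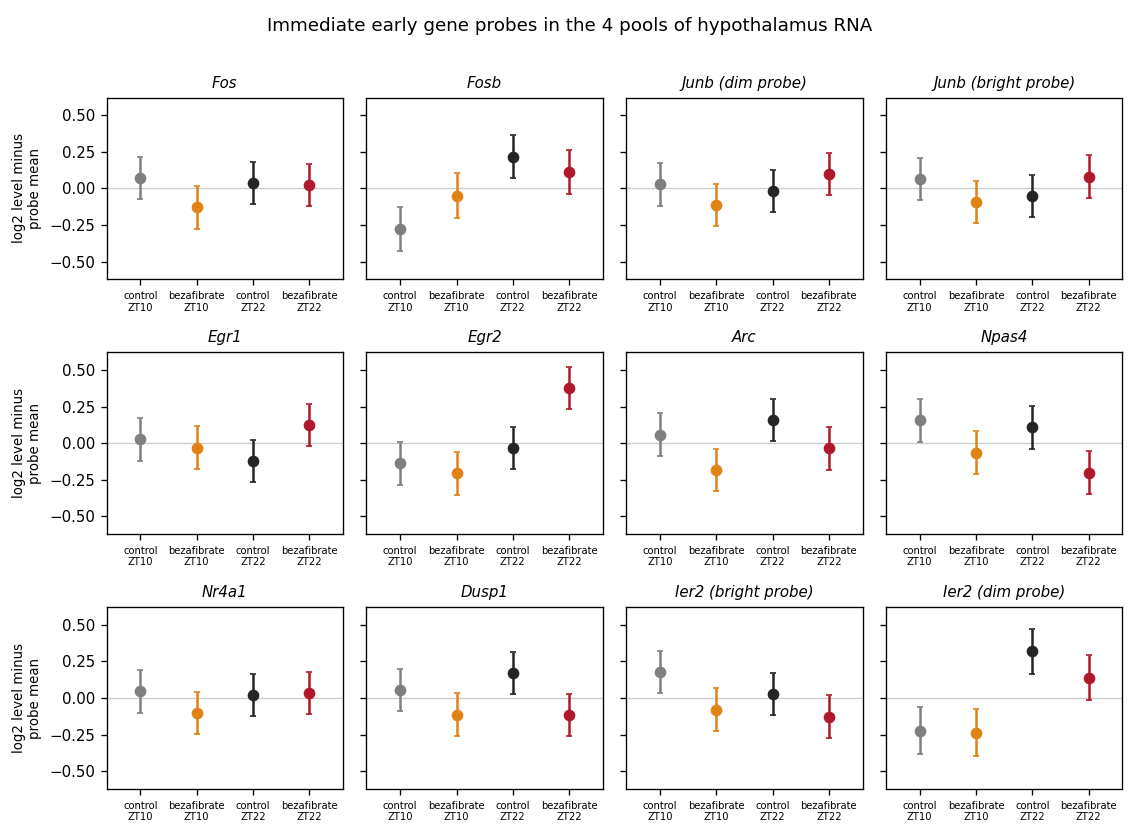
Log2 level of each of the 12 probes in the 4 pools, with the mean of the probe over the pools set to 0 and bars at the scanner error of the diet ratio divided equally between its 2 arrays. The vertical scale is the same in each panel, and the median range of a probe over the 4 pools was 0.30.

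Of the AP-1 subunits, Fos spanned 1.15-fold over the pools and Fosb 1.41-fold. Fos, whose protein pairs with JUN proteins to form AP-1, had a scaled signal of 512 (control) and 445 (bezafibrate) at ZT10, and of 499 (control) and 495 (bezafibrate) at ZT22. The bezafibrate ZT10 pool was the low value and the other pools lay close together. The log2 ratio with bezafibrate was -0.20 ± 0.20 at ZT10 and -0.01 ± 0.20 at ZT22, and that of ZT22 over ZT10 was -0.04 ± 0.20 in control and 0.15 ± 0.20 in bezafibrate mice. The Fos probe (A_52_P262219) was printed at 10 spots, which show the repeatability within an array but are not replicates of the condition. At ZT10 all 10 spots were lower with bezafibrate, with spot ratios from -0.27 to -0.06 and a median of -0.23. All 10 spots were lower in that comparison for 23.1% of 147 probes printed 10 times, so the share is a common one. At ZT22 the 8 spots kept on the bezafibrate array gave 3 lower and 5 higher ratios, from -0.07 to 0.12.

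**Figure D3:**
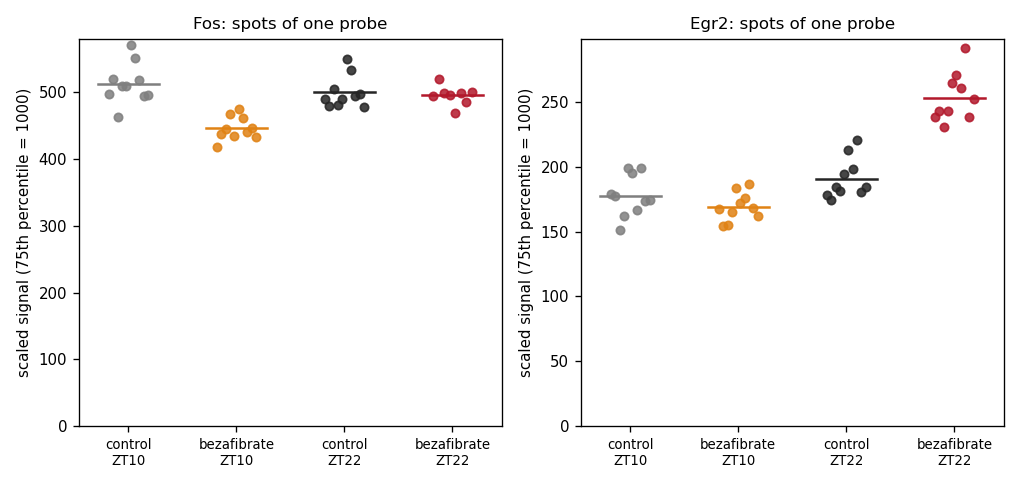
Scaled signal of each spot of the Fos and Egr2 probes on the 4 arrays, with a line at the mean of each array. The axis starts at 0, and 8 Fos spots are drawn for the bezafibrate ZT22 array, where 2 were outliers.

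Fosb encodes another AP-1 partner of JUN proteins, which also yields the long-lived isoform ΔFosB under repeated stimulation. Its probe (A_51_P138378) was dim, at 63.1 (control) and 74.0 (bezafibrate) for ZT10 and at 89.0 and 82.6 for ZT22. Both ZT22 values lay above both ZT10 values, as they did for 28.8% of 27191 probes above background on all arrays. The time ratio was 0.50 ± 0.21 (1.41-fold) in control mice, higher than that of 96.4% of measured probes but 0.27 under normexp background correction, and 0.16 ± 0.21 in bezafibrate mice. With bezafibrate the ratio was 0.23 ± 0.21 at ZT10 and -0.11 ± 0.21 at ZT22.

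Junb, a JUN family subunit of AP-1, was measured by 2 probes that differed by at most 0.08 in any log2 ratio. Probe A_51_P159201 read 9248 (control) and 8295 (bezafibrate) at ZT10, and 8525 (control) and 9350 (bezafibrate) at ZT22. Its log2 ratios with bezafibrate were -0.16 ± 0.20 at ZT10 and 0.13 ± 0.20 at ZT22, while the second probe, A_51_P159194, gave -0.14 and 0.11. The bezafibrate ZT10 pool was again the lowest with both probes. The widest of the 8 Junb ratios was that of A_51_P159194 between times in bezafibrate mice (0.21 ± 0.20).

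The EGR zinc finger factors had their highest signals in the bezafibrate pool at ZT22. Egr1, also known as Zif268 and Krox24, is induced with synaptic plasticity. It read 3356 in control and 3229 in bezafibrate mice at ZT10, and 3030 in control and 3595 in bezafibrate mice at ZT22 (probe A_51_P367866). The order of the pools spanned 1.19-fold, with a ratio for bezafibrate of -0.06 ± 0.20 at ZT10 and 0.25 ± 0.20 at ZT22. Egr2, or Krox20, also drives the myelin program of Schwann cells. Its 4 scaled signals were 177 (control, ZT10), 169 (bezafibrate, ZT10), 190 (control, ZT22) and 253 (bezafibrate, ZT22) with probe A_51_P173043. The bezafibrate ZT22 pool stood above the other 3, which lay close together. With bezafibrate the log2 ratio was -0.07 ± 0.21 at ZT10 and 0.41 ± 0.21 (1.33-fold) at ZT22, the latter higher than that of 96.4% of measured probes. The ratio of ZT22 to ZT10 was 0.10 ± 0.21 in control and 0.58 ± 0.21 in bezafibrate mice, the latter higher than 98.0% of measured probes. Each of the 10 Egr2 spots was higher with bezafibrate at ZT22, from 0.32 to 0.48, as were all 10 spots of 18.8% of 149 probes printed 10 times. All 10 were also higher at ZT22 than at ZT10 in bezafibrate mice, from 0.50 to 0.66, as for 31.3% of 150 such probes.

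The other EGR genes, which are not among the 10, had the same high pool. Egr3 read 120 and 134 intensity units at ZT10 and 110 and 189 at ZT22 in control and bezafibrate mice, with a ratio for bezafibrate of 0.10 ± 0.21 at ZT10 and 0.96 ± 0.21 at ZT22. Its time ratio was -0.13 in control and 0.73 ± 0.21 in bezafibrate mice. A second Egr3 probe was dim (mean signal 18.6) and above background on the bezafibrate arrays alone. Its diet ratios were bounds of at least 1.51 at ZT10 and 1.94 at ZT22, and its time ratio in bezafibrate mice was 1.11. Egr4, named after its values were seen, had ratios for bezafibrate of -0.20 at ZT10 and 0.41 at ZT22. Nab2, a corepressor that binds EGR proteins and is itself their target, had -0.20 and 0.27. All 5 genes were highest in the bezafibrate ZT22 pool, also under normexp and quantile normalization, and this array held the highest value of 30.1% of probes over the array. No test of the EGR genes as a group was made.

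**Figure D4:**
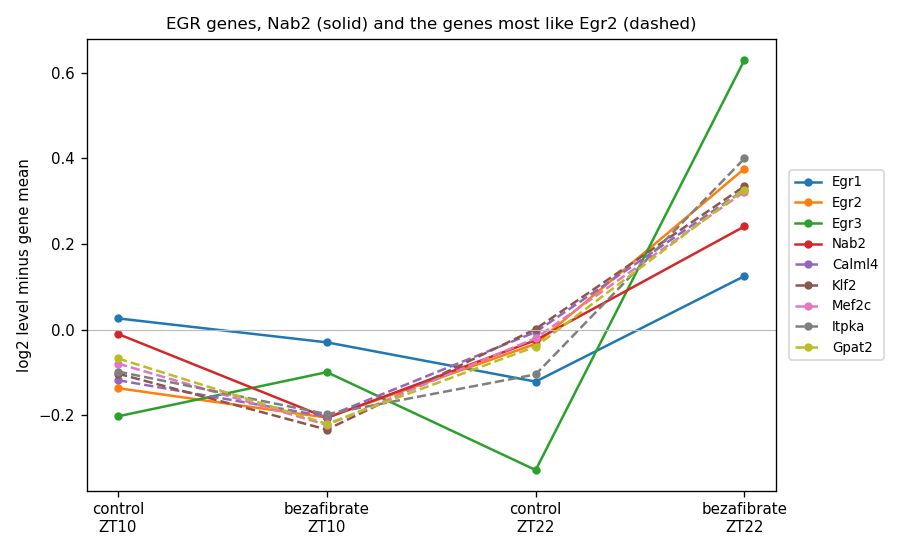
Log2 levels over the 4 pools of Egr1, Egr2, Egr3 and Nab2 (solid lines) and of the 5 genes most like Egr2 (dashed lines). Each gene has its own mean set to 0, and Egr4 is not drawn. Each of these lines is highest in the bezafibrate ZT22 pool.

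Among 13082 candidate genes above background on all 4 arrays, those whose centred log2 profile lay nearest to that of Egr2 were Calml4 (root mean square difference 0.030), Klf2 (0.035), Mef2c (0.041), Itpka (0.042) and Gpat2 (0.043), over 4 arrays. Egr2 was taken for this because its range over the pools was the widest of the members. The likeness rests on 4 points and says nothing of shared function or control. Itpka, a calmodulin-regulated kinase of dendritic spines, had ratios for bezafibrate of -0.10 at ZT10 and 0.50 at ZT22. Mef2c, an activity-responsive transcription factor abundant in cortical neurons, had -0.14 and 0.34. For Klf2 the brightest probe had time ratios of 0.10 in control and 0.57 in bezafibrate mice. A second Klf2 probe, also above background on all 4 arrays, gave -0.29 and -0.04.

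Markers of forebrain tissue next to the hypothalamus were also high in the bezafibrate ZT22 pool, where EGR signals were highest. All 13 striatum markers measured were higher with bezafibrate at ZT22, with a median log2 ratio of 0.50, and 6 of them were at least 1.5-fold higher (12 of 13 were higher under quantile normalization). At ZT10, 12 of the 13 were lower, with a median of -0.06. Their summed scaled signal was 12179 (control) and 11321 (bezafibrate) at ZT10, and 10522 (control) and 15253 (bezafibrate) at ZT22. With bezafibrate at ZT22, Ppp1r1b (DARPP-32), a phosphatase inhibitor of striatal projection neurons, had a log2 ratio of 0.96 and the dopamine receptor gene Drd1 one of 0.89. The 15 cortex and hippocampus markers had a median of 0.08 at ZT22, with Neurod6 at 0.80, and their summed signal was 24528 in control and 32078 in bezafibrate mice. Striatal and cortical neurons express EGR genes themselves, and the part of these tissues in the EGR values was not tested.

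The remaining transcription factors showed small differences. Npas4, a neuronal bHLH-PAS factor induced by calcium influx, read 147 in control and 126 in bezafibrate mice at ZT10, and 142 and 114 at ZT22 (probe A_51_P433810). Both bezafibrate pools lay below both controls, as for 12.4% of probes above background on all arrays, with ratios of -0.22 ± 0.21 at ZT10 and -0.31 ± 0.21 at ZT22, the latter above only 6.17% of measured probes but -0.16 under normexp. Its time ratio was -0.05 in control and -0.14 in bezafibrate mice. Nr4a1, the orphan nuclear receptor Nur77, read 6406 and 5790 at ZT10 and 6297 and 6361 at ZT22 in control and bezafibrate mice (probe A_51_P239654). Only the bezafibrate ZT10 pool was apart from the others, and the ratio there was -0.15 ± 0.20.

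Ier2, a short nuclear protein of growth factor and activity responses, was measured by 2 probes that differed. Probe A_51_P481325 read 814 and 681 at ZT10 and 733 and 658 at ZT22 in control and bezafibrate mice, with both bezafibrate pools lower (ratios of -0.26 ± 0.20 and -0.15 ± 0.20). Probe A_52_P554555 read 60.7 and 60.1 at ZT10 and 88.3 and 77.9 at ZT22. Here the split was by time, with a ratio of ZT22 to ZT10 of 0.54 ± 0.22 in control and 0.37 ± 0.23 in bezafibrate mice, whereas the first probe gave -0.15 and -0.05. The probes thus differed by 0.69 in the time ratio of control mice, and no direction with time is given for Ier2.

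Arc and Dusp1 were lower in both bezafibrate pools than in the controls of the same time. Arc, a synaptic protein that promotes removal of AMPA receptors from the membrane, read 3050 and 2581 at ZT10 and 3267 and 2856 at ZT22 in control and bezafibrate mice (probe A_51_P503494). Its 2 diet groups did not overlap. Bezafibrate pools lay below both controls for 5 of the 12 probes (Fos, Arc, Npas4, Dusp1 and A_51_P481325 of Ier2), against the 12.4% above. For Arc the ratios were -0.24 ± 0.20 and -0.19 ± 0.20. Dusp1, a phosphatase that inactivates MAP kinases and is also induced by glucocorticoids, read 1188 and 1057 at ZT10 and 1287 and 1056 at ZT22 (probe A_51_P430900). The ratios were -0.17 ± 0.20 and -0.29 ± 0.20, and the 2 bezafibrate pools were level with each other. Diet ratios were negative at both times for 6 of the 12 probes, those of Fos, Npas4, Arc, Dusp1 and both of Ier2, of which the dim Ier2 probe had a positive ratio in other scalings. This pattern held for 24.7% of the 27191 probes. They were positive at both times for 0 (29.4% of all probes) and of opposite sign for 6 (45.9%). Between times, 4 probes were higher at ZT22 in both diets (36.7% of all probes), 2 were lower in both (30.6%) and 6 differed in sign (31.4%). These patterns were counted after the values were seen, and genes of the same pools are not independent.

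A fit over all 4 arrays estimated diet and time effects averaged over the other factor. With limma's moderated test and Benjamini-Hochberg adjustment, 0 of 12 member probes passed an adjusted p of 0.05 for diet or for time, and 0% of all probes did. At an unadjusted p of 0.05, 1 of 12 passed for diet, against 5.26% of 31216 probes, and 1 of 12 for time, against 11.1% of 31213 probes. The diet count was 3 of 12 (background 5.97%) among probes above background on all 4 arrays, 4 of 10 (5.97%) at a mean signal of at least 100, and 4 of 12 (5.31%) with a mean-dependent prior in limma. The diet probe was that of Npas4, lower in 2 of 2 bezafibrate pools, with an effect of -0.27 (SE 0.06, limma p 0.0411, adjusted 0.881). The time probe was A_52_P554555 of Ier2, higher at ZT22 in 2 of 2 diets, with an effect of 0.46 (SE 0.08, limma p 0.0207, adjusted 0.442). The model had 1 residual degree of freedom, which is the difference of the diet ratio between the 2 times. These p-values set an effect against that difference, moderated over all probes, and not against a spread between replicate pools.

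Other genes of the pathway were read from 5 lists with 1 probe per gene, the brightest. On that basis, 1.74% of genes on the array were at least 1.5-fold higher and 2.83% lower with bezafibrate at ZT10, and 2.55% higher and 4.11% lower at ZT22. Between times, 3.91% were higher and 4.98% lower at ZT22 in control mice, and 3.18% higher and 3.92% lower in bezafibrate mice. Of 23 other immediate early transcription factors, 22 were above background on all 4 arrays and 0 were 1.5-fold apart with diet at ZT10. At ZT22, Egr3 was the 1 gene that much higher with bezafibrate and Nr4a3, a relative of Nr4a1, the 1 that much lower. In bezafibrate mice Egr3 was also the 1 gene that much higher at ZT22 than at ZT10. Nr4a3 was above background only in the control ZT22 pool, where it was dim at 27.5 intensity units. Its ratios are bounds against the lowest above-background value on the compared array. They put its level there at 2.54-fold or more that with bezafibrate and 3.66-fold or more that of control mice at ZT10. The scanner errors of these comparisons were large, at 0.72 and 1.45 in log2. The median of the list was -0.02 at ZT10 and 0.03 at ZT22 with diet, and 0.06 and 0.09 with time in control and bezafibrate mice. Jun, the main AP-1 partner of Fos, had time ratios of 0.37 and 0.22 and diet ratios of -0.06 and -0.21. Fosl2 had time ratios of 0.24 and 0.36. Nr4a2, a factor of dopamine neurons, had -0.09 and -0.22.

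Among 20 activity-regulated effector genes, 15 were lower with bezafibrate at ZT10 (median -0.10) and 7 at ZT22 (median 0.05), and the time medians were -0.05 and 0.04. The scaffold gene Homer1 had diet ratios of -0.03 at ZT10 and 0.31 at ZT22, although its other 2 probes gave 0.12 and 0.17 at ZT22. Bdnf, the neurotrophin, had 0.03 and 0.02, and another probe gave -0.19 and -0.23. At 1.5-fold, Pim1, a kinase gene, was lower at ZT22 in control mice (-0.63 ± 0.34), and Arl4d, a small GTPase gene, was higher at ZT22 in bezafibrate mice (0.73), with a second Arl4d probe at -0.36. Of 14 feedback regulators of MAP kinases and mRNA decay, Zfp36l2 alone was 1.5-fold apart, with bezafibrate at ZT10 (0.97 ± 0.28) and between times in control mice (1.90 ± 0.26), from a dim probe at 18.7 and 38.1 intensity units at ZT10 and 69.9 and 46.1 at ZT22. The diet medians of that list were 0.07 and 0.04 and the time medians 0.12 and 0.11. Zfp36, which promotes decay of cytokine and immediate early mRNAs, lay between -0.07 and -0.14 throughout.

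The transcription factors and kinases above the immediate early genes had small medians, while single genes differed more. Their log2 ratios ran from -0.34 to 0.54 with diet at ZT10 and from -0.18 to 0.47 at ZT22. Between times they ran from -0.53 to 0.91 in control and from -0.41 to 1.06 in bezafibrate mice. Of 30 measured, 0 were 1.5-fold apart with diet at either time, with medians of 0.03 at ZT10 and 0.05 at ZT22, and time medians of 0.02 in control and 0.08 in bezafibrate mice. Srf had diet ratios of 0.06 and 0.01 and time ratios of 0.02 and -0.02, and Creb1 had 0.12 and 0.05 with diet. Mrtfb, a cofactor of SRF, was 1.5-fold higher at ZT22 in both diets (0.91 ± 0.22 and 1.06 ± 0.25), while a dimmer probe gave 0.26 and 0.66. Glucocorticoid-responsive genes, a list that also holds Dusp1 and Per1, differed with time. Of 14 measured, 11 were lower at ZT22 in control mice (median -0.44, 3 at least 1.5-fold) and 10 in bezafibrate mice (median -0.10, 1 at least 1.5-fold). With bezafibrate, 8 were lower at ZT10 (median -0.03) and 13 were higher at ZT22 (median 0.28, 2 at least 1.5-fold). Sgk1, a kinase gene and direct glucocorticoid target, had time ratios of -1.15 and -0.58 and a diet ratio of 0.67 at ZT22. The clock gene Per1 had time ratios of -0.45 and -0.31. Dusp1 was the 1 gene of this list that was lower with bezafibrate at ZT22.

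**Figure D5:**
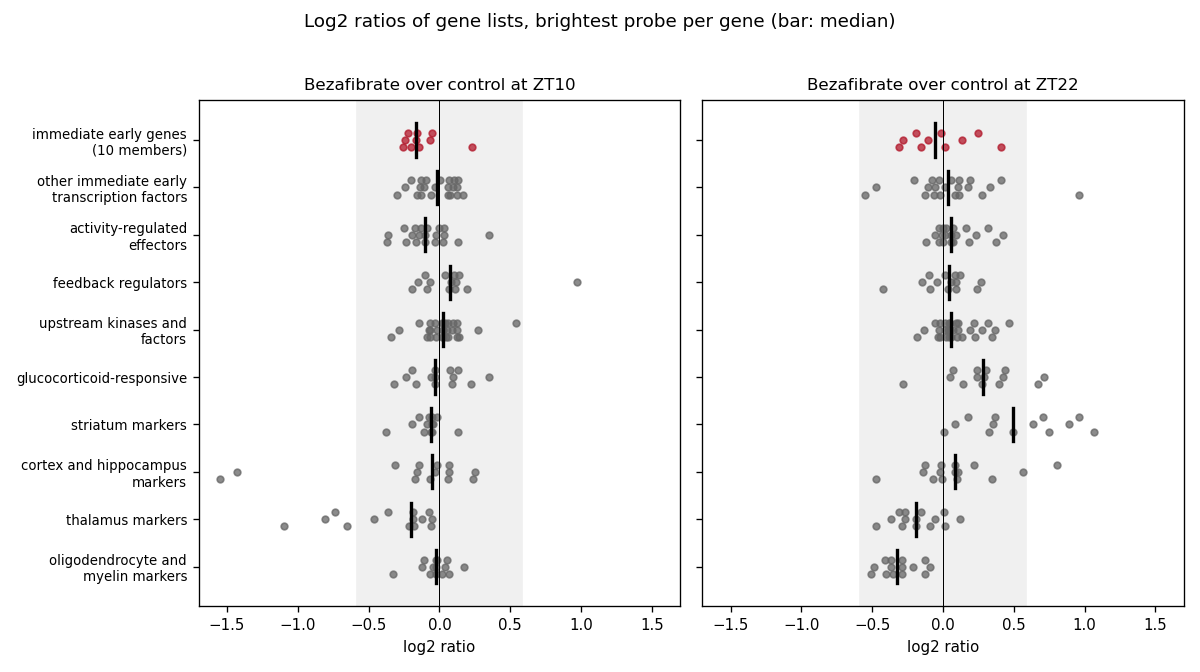
Log2 ratios with bezafibrate at ZT10 and at ZT22 of the 10 genes (red), of the pathway lists and of some tissue marker lists. The tissue lists drawn are those of striatum, cortex and hippocampus, thalamus and myelin. Each point is 1 gene from its brightest probe, and a bar marks the median. Points beyond the horizontal limits of 1.7 are not drawn. The shaded band marks ratios within 1.5-fold.

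Markers of the tissues in the block differed between the pools. With bezafibrate at ZT10, all 14 thalamus markers were lower (median -0.20, 4 at least 1.5-fold), among them Tnnt1 at -1.10, as were 18 of 24 hypothalamus markers (median -0.11). Of 14 cortex and hippocampus markers measured in that comparison, 9 were lower and 5 higher (median -0.05). The lowest were Neurod2 at -1.55, with a second probe at -0.50, and Slc17a7 at -1.43. Of 10 anterior pituitary markers, 8 were lower (median -0.45), with Prl at -4.48. Pou1f1 was dim on all 4 arrays. At ZT22, 8 of 11 choroid plexus markers were at least 1.5-fold higher with bezafibrate (median 0.88), with Ttr at 3.76, and all 14 myelin markers were lower (median -0.32, 0 at 1.5-fold, and 1 turned positive under normexp). Glial and vascular markers had diet medians of 0.01 and -0.06. In bezafibrate mice, 22 of 24 hypothalamus markers were higher at ZT22 (median 0.27) and 18 of 24 in control mice (median 0.10), while their diet median at ZT22 was 0.00. Whether these shifts in the block take part in the low members of the bezafibrate ZT10 pool was not tested.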

How the data were processed

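Pooled hypothalamus RNA was measured on 4 one-colour (Cy3) whole-mouse-genome arrays, 1 for each diet and time. Groups came from the labels. Per the file headers, the authors extracted the spots with Agilent Feature Extraction, and the deposited processed signal is a background-subtracted intensity, not normalized between arrays. Per the labels, the deposited value table is the ratio of bezafibrate to control for present spots. Set against the arrays, its columns (medians 0.947 and 0.958) were linear, ran in that direction (r 0.996 and 0.995 on log2) and differed from the signal ratio by a constant log2 factor of -0.14 and 0.10. The origin of that factor is not stated, and the table served for an alternative.

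For each array, log2 of the processed signal was reduced by its 75th percentile over 43379 features other than controls. Controls and the 73 to 142 spots marked as outliers on an array were omitted, and repeated spots of a probe were averaged. No spot was saturated. Names came from the accession (22951 probes), a symbol (5850) or an older symbol (3944) through the RefSeq gene table of GRCm38.p6, while 2206 were named by the files alone and 6223 had no name. A ratio was measured where both arrays were well above background and was a bound where 1 was. With 1 array per group, called means 1.5-fold apart (2-fold as an alternative). The additive fit of diet and time used limma 3.58.1 in R 4.3.3, with all probes above background on at least 1 array. Calling and fitting were tested on simulated data.

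The genes, lists and rules were chosen with earlier results of these data known. Named are every member probe, up to 6 genes per pathway list at 1.5-fold with a set of fixed genes (Jun, Fosl2, Egr3, Nr4a2, Nr4a3, Homer1, Bdnf, Per1, Sgk1, Srf, Creb1, Nab2 and Zfp36), up to 3 per tissue list, and the 5 genes most like Egr2. A value of 1 gene that this rule names is not reported here. Egr4 and the counts by spot and by scanner error were added after the values were seen. The 5 pathway lists and 8 tissue lists are those given in the report. The number of arrays, 4, limits the precision.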

Additional observations from a re-analysis of the deposited data

Results flagged for a closer look

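The diet ratio had opposite signs at ZT10 and ZT22 for 6 probes, and the difference was not tested, since 1 array per group leaves none. As the log2 ratio at ZT10 minus that at ZT22, it was 0.34 for Fosb, -0.25 and -0.29 for the 2 Junb probes, -0.30 for Egr1, -0.48 for Egr2 and -0.16 for Nr4a1.

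The time ratio had opposite signs in the 2 diets for 6 probes, also untested. As the ratio in control minus that in bezafibrate mice, it was -0.19 for Fos, -0.25 and -0.29 for Junb, -0.30 for Egr1, -0.16 for Nr4a1 and 0.12 for Dusp1. By construction, this difference is the same number as the one for diet, so probes given in both sentences count once.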

How the results depend on the processing

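All 44 recomputed counts of members stayed at 0, and the medians moved by less than the scanner error under each alternative. At ZT10 the diet median ran from -0.24 (the authors' table) to -0.14. At ZT22 it ran from -0.12 (the authors' table) to 0.00 (probes with a mean signal of at least 100). In the authors' table the median over all probes was itself -0.08 at ZT10 and -0.06 at ZT22, against 0.01 at both times in the main setting. The time median ran from -0.04 to -0.02 in control and from 0.12 to 0.15 in bezafibrate mice. The smallest adjusted p of a member ran from 0.802 to 0.99995 for diet and from 0.207 to 0.457 for time. Background correction by normexp used median spot intensities, since no mean intensity was in the columns. It brought the control time ratio of Fosb from 0.50 to 0.27 and that of the dim Ier2 probe from 0.54 to 0.25, and that of Npas4 with diet at ZT22 from -0.31 to -0.16, and the cause was not tested. The number of members past an unadjusted p of 0.05 in limma ran from 1 to 4 for diet and from 0 to 1 for time. Signs turned for Nr4a1 with diet at ZT22 (-0.01 under normexp, -0.06 in the authors' table), for the dim Ier2 probe with diet (0.04 at ZT10 under quantile normalization, and from -0.18 to 0.02 at ZT22 under normexp) and for Dusp1 between times in bezafibrate mice (0.01 under normexp).

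Over the whole array, the higher and lower calls at 1.5-fold with bezafibrate were 534 and 820 at ZT10, 660 and 616 under quantile normalization, 102 and 189 under normexp and 462 and 633 in the authors' table. At ZT22 they were 723 and 1153, 911 and 1026, 172 and 183, and 862 and 785. Between times they were 1114 and 1525 in control mice and 840 and 1111 in bezafibrate mice, and under normexp 258 and 298, and 240 and 114. No paired analysis was possible because each group had 1 array and no replicate number, and leaving out an array leaves 0 residual degrees of freedom.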
